A study of Mus musculus and synthetic construct with 3 samples.

Results

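MHC class II hexagons were the small areas of the aortic sections in which RNA of the class II antigen presentation genes was captured most often. A hexagon with sides of 12 µm was called a class II hexagon when it held 2 or more unique transcripts (unique molecular identifiers, UMIs) summed over Cd74, H2-Aa, H2-Ab1 and H2-Eb1. Of the 11650 hexagons with 50 or more genes inside the 20 sections, 396 (3.40%) met this rule. Of these, 384 lay in sections of abdominal aortic aneurysms (AAA) and 12 in sections of control aortas. The hexagons were selected on the measured UMIs of these 4 genes, so their levels within them are a description and not a result.

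Spatial gene expression was measured with Seq-Scope, in which RNA from a tissue section is captured on an array of barcoded clusters with known positions. All mice were male and Apoe -/-, which lack the lipoprotein ligand apolipoprotein E. The AAA group received angiotensin II (AngII) from subcutaneous minipumps for 4 weeks and consists of 3 mice that developed an aneurysm, while the control group consists of 3 mice infused with saline for the same time. The labels give an age of 16 weeks and AngII at 1000 ng/ml, while the methods state another age and a dose per body weight. Suprarenal aortas were frozen, embedded in pairs and cut into sections of 10 µm, 10 of AAA and 10 of control. All sections were pooled in 1 deposited matrix. Each section was assigned to its mouse from the map of the array in the supplement, since the labels name libraries only. A hexagon can hold parts of several cells. The 3 AAA mice (AAA1 to AAA3) had 524124, 180128 and 213126 UMIs in kept hexagons, and the 3 control mice (C1 to C3) had 58921, 30531 and 30283, so that values of control mice rest on fewer hexagons and less RNA. Apoe deficiency is shared by both groups, and no mouse with intact Apoe was measured.

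MHC class II molecules are pairs of an alpha and a beta chain that display peptides of engulfed proteins to CD4+ T cells. H2-Aa and H2-Ab1 encode the alpha and the beta chain of the I-A molecule, H2-Eb1 encodes the beta chain of I-E, and Cd74 encodes the invariant chain, which fills the peptide groove while new molecules travel to the endosome. Dendritic cells, B cells and macrophages are the cells best known for carrying them. In GRCm38 (mm10), H2-Ab1 lies on chromosome 17 from 34257689 to 34269419 (plus strand), H2-Aa lies from 34282744 to 34287823 (minus strand) and H2-Eb1 lies from 34305867 to 34316674 (plus strand).

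Genes of this family are switched on together through promoter elements named the S, X and Y boxes. The promoters of 2 of the 4 genes that define the hexagons were available, and they are printed because the rule rests on transcripts that share this control. Each runs from 250 bases before the RefSeq start site to 50 bases after it (RefSeq, GRCm38.p6), 5′ to 3′ on the strand of the gene, with capitals for the letters CTGATTGG of the Y box. H2-Aa is at chr17:34287774-34288073 on the minus strand and H2-Eb1 is at chr17:34305617-34305916 on the plus strand.
H2-Aa: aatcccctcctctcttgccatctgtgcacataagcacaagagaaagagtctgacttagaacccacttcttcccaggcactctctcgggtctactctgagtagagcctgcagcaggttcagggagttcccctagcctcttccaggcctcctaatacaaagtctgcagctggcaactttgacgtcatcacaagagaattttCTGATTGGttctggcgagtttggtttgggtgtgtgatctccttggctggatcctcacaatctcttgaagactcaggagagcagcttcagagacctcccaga
H2-Eb1: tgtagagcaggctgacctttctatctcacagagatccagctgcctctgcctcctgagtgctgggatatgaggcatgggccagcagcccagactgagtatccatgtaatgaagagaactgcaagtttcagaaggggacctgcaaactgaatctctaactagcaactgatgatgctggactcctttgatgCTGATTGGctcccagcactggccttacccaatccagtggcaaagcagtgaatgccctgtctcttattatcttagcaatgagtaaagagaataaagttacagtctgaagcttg
The letters began 51 bases before the start site of H2-Aa and 62 bases before that of H2-Eb1. Searched on both strands, they were present in 1346 of 32851 promoters of this length (4.10%). A match of letters is a description of the sequence.

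The share of class II hexagons was higher in each AAA mouse than in each control mouse. The share was 4.47% in AAA1 (248 of 5543 hexagons, 95% Clopper-Pearson interval from 3.94% to 5.05%), 3.77% in AAA2 (74 of 1964, from 2.97% to 4.71%) and 2.31% in AAA3 (62 of 2681, from 1.78% to 2.95%). In control mice it was 0.460% in C1 (3 of 652, from 0.0950% to 1.34%), 1.79% in C2 (7 of 392, from 0.721% to 3.64%) and 0.478% in C3 (2 of 418, from 0.0580% to 1.72%). The intervals of AAA2 and AAA3 overlapped with that of C2, and all intervals cover counting error only. The mean was 3.52% ± 1.10 in AAA and 0.908% ± 0.760 in control mice (SD, n = 3 each), a difference of 2.61 percentage points (exact two-sided permutation test, p = 0.1). With 3 mice against 3, 0.1 is the smallest p that this test can give.

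**Figure D1:**
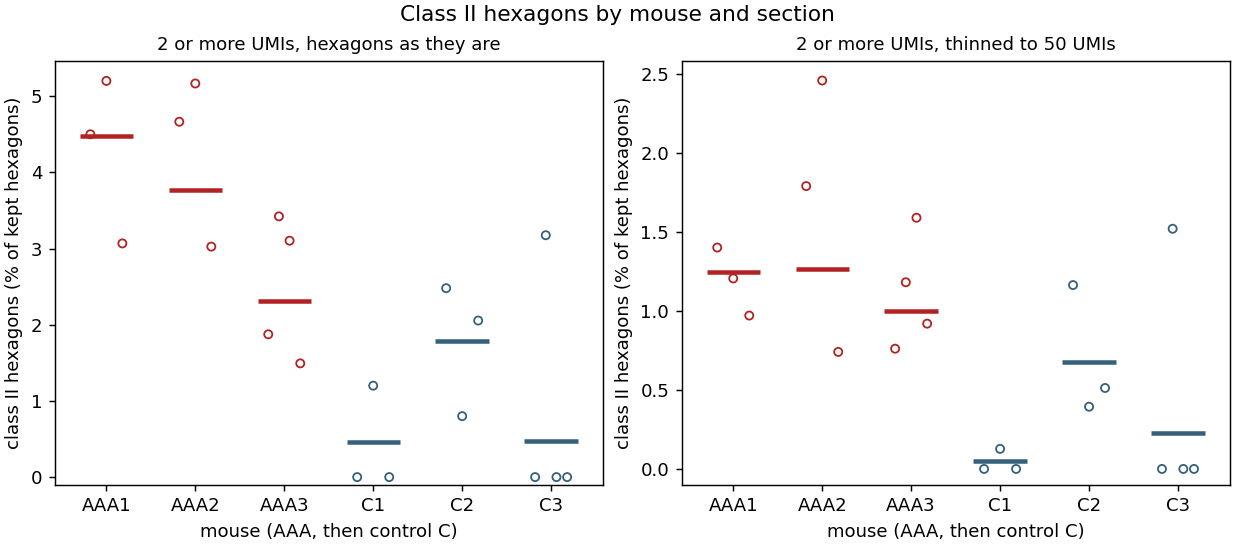
Share of kept hexagons (percent, y axis) that were class II hexagons, as a line for each mouse and a circle for each of its sections, AAA left of control, for hexagons as they are and thinned to 50 UMIs. Unthinned, the lines of the 3 AAA mice sit between 2.31% and 4.47% and those of the 3 control mice between 0.460% and 1.79%.

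All 10 AAA sections contained class II hexagons, at 1.49% to 5.20% of their hexagons. Of the 10 control sections, 5 contained none. In the smallest of these it was 0 of 61 hexagons, which allows a share of up to 4.92% when 3 counts are taken as the limit of a count of 0 (the Clopper-Pearson interval reaches 5.87%). AAA1 supplied 62.6% of all class II hexagons and 47.6% of all kept hexagons. Depth per hexagon was similar between the conditions, with a median of 71 to 79 UMIs in AAA mice and 67 to 77 in control mice.

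Hexagons with more RNA had more chances to reach 2 UMIs, so every hexagon was also thinned to 50 UMIs. The expected share was then 1.25%, 1.27% and 0.998% in AAA1 to AAA3, against 0.0488%, 0.677% and 0.229% in C1 to C3. The difference was smaller than before thinning, and the mice again did not overlap (1.17% ± 0.150 in AAA and 0.318% ± 0.323 in control mice, SD, n = 3 each, exact two-sided permutation test, p = 0.1). At 1 or more UMI of the 4 genes the unthinned share was 17.9% ± 1.44 in AAA and 10.2% ± 1.18 in control mice (SD, n = 3 each, exact two-sided permutation test, p = 0.1). In tissue sections, more cells carrying these transcripts and more transcripts per cell cannot be told apart.

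The 4 genes were also followed over all kept hexagons, where the threshold of 2 UMIs plays no part. Each was given as CPM, the gene's UMIs scaled to 1000000 UMIs of the mouse. H2-Ab1 had 1025, 983 and 887 CPM in AAA1 to AAA3, against 289, 590 and 561 CPM in C1 to C3. H2-Aa had 563, 500 and 530 CPM in the AAA mice, against 289, 164 and 297 CPM in the control mice. Both genes were higher in every AAA mouse than in every control mouse. Cd74, which lies apart from the others on chromosome 18 from 60803848 to 60812652 (plus strand), had 769, 744 and 662 CPM in the AAA mice, against 373, 622 and 363 CPM in the control mice. H2-Eb1 had 368, 350 and 394 CPM in the AAA mice, against 119, 328 and 198 CPM in the control mice. The groups did not overlap for these either, but C2 came close to the AAA mice for both.

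H2-Ab1 and H2-Aa passed the test across all genes and Cd74 and H2-Eb1 did not. On the log2 scale, AAA over control, H2-Ab1 was at 1.12 (standard error, SE, 0.23, adjusted p = 0.0067, edgeR's quasi-likelihood test on UMIs summed per mouse) and H2-Aa at 1.05 (SE 0.24, adjusted p = 0.0178, edgeR). Cd74 was at 0.73 (SE 0.22, adjusted p = 0.0858, edgeR) and H2-Eb1 at 0.93 (SE 0.30, adjusted p = 0.112, edgeR). With the threshold at an adjusted p of 0.05, AAA was higher for 35 of the 2475 genes of this fit (1.41%) and lower for 58 (2.34%). The 2 calls depended on single mice: H2-Aa lost its call without C1 (adjusted p = 0.0824, edgeR) or C2 (adjusted p = 0.0582, edgeR), and H2-Ab1 lost its call without C1 (adjusted p = 0.112, edgeR) or AAA2 (adjusted p = 0.0502, edgeR).

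**Figure D2:**
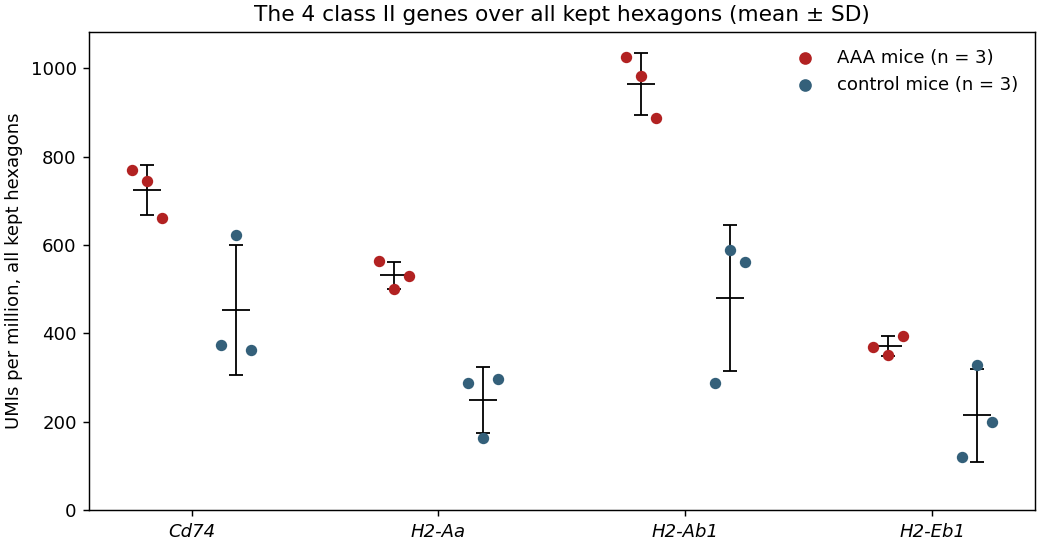
Level of each of the 4 class II genes in CPM (y axis, linear from 0) over all kept hexagons of each mouse (points), AAA left of control, with the group mean and SD. No control mouse reached the level of any AAA mouse for H2-Ab1, H2-Aa, Cd74 or H2-Eb1.

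The rest of the pathway and the marker lists were read from the same fit, in which 1262 of all genes (51%) were above 0 and 1213 (49%) below. Of the 11 genes of the class II loading list (the enzymes and chaperones that cut the invariant chain and load the peptide), 4 had enough UMIs to be tested and all 4 had fold changes above 0. Ctss, the protease that trims the invariant chain, passed, at 1.15 (SE 0.30, adjusted p = 0.0350, edgeR). Ctsl, Lgmn and Ifi30 were the others and did not pass. Of 17 tested macrophage genes, 15 were above 0 and 6 passed, with Lyz2 (lysozyme) at 1.60 (SE 0.23, adjusted p = 0.000519, edgeR) and C1qc, a chain of complement C1q, at 1.42 (SE 0.24, adjusted p = 0.00177, edgeR). Of 20 collagen fibroblast genes, 7 passed as higher, among them Col3a1 at 0.79 (adjusted p = 0.00513, edgeR). Of 14 contractile smooth muscle genes, 12 passed as lower, with Acta2 (smooth muscle actin) at -1.25 (SE 0.19, adjusted p = 0.000559, edgeR). Macrophage, collagen and smooth muscle transcripts thus differed between the conditions together with the class II genes, and their part in the class II difference was not tested.

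Most class II hexagons held little more than the rule required. UMIs of the 4 genes numbered 0 in 9655 hexagons, 1 in 1599, 2 in 287, 3 in 69 and 4 in 24, and 5 to 11 in the remaining 16. Just inside the threshold, the 287 hexagons with 2 UMIs had a median of 106 UMIs in all, and just outside it, the 1599 with 1 UMI had a median of 86. All 12 class II hexagons of control mice had exactly 2. The richest hexagon, with 11 UMIs of the 4 genes, had 552 UMIs in all.

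H2-Ab1 was the gene found most often, with a UMI in 60.9% of the 396 class II hexagons, followed by Cd74 in 48.5%, H2-Aa in 36.9% and H2-Eb1 in 24.7%. All UMIs of the 4 genes in the kept hexagons came to 2577, of which 978 (38.0%) lay in class II hexagons. UMIs of a single gene made up 151 of the 396, with H2-Ab1 alone in 69, Cd74 alone in 43, H2-Aa alone in 22 and H2-Eb1 alone in 17. A further 212 held exactly 2 of the genes, 30 held 3 and 3 held all 4. Counting every hexagon with both, Cd74 and H2-Ab1 met in 87, H2-Aa with H2-Ab1, the chains of I-A, in 74 and Cd74 with H2-Aa in 55. These are counts of UMIs and are not scaled by gene length, so they do not order the genes by level.

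The label of antigen-presenting cells was checked against the defining genes of the cell types that carry class II. Of the 15 genes of the dendritic cell list, Flt3, Xcr1 and Cd209a had 0 UMIs in class II hexagons of all 3 AAA mice, but they had only 3, 5 and 5 UMIs over all kept hexagons. Itgax (CD11c) and Zbtb46 had 2 UMIs each in class II hexagons, all in AAA1, of 48 and 35 over all kept hexagons. The sum of the list was 805, 768 and 486 CPM in class II hexagons of AAA1 to AAA3, against 562, 481 and 499 CPM in the other hexagons. Clec10a, a lectin of dendritic cells and macrophages, gave 14 of these 41 UMIs, at 260, 220 and 324 CPM in class II hexagons, against 138, 87.9 and 82.4 CPM in the others. For B cells, Ms4a1 (CD20) had 0 UMIs and Cd79a had 1 in class II hexagons of AAA mice, of 11 and 13 over all kept hexagons. The 11 genes of the B and plasma cell list, mostly the immunoglobulin light chain Igkc, came to 779, 988 and 972 CPM, against 1357, 1237 and 1352 CPM in the other hexagons, which was lower in 3 of 3 mice. The T and NK cell list had 5, 2 and 0 UMIs and the neutrophil list 4, 1 and 0. The defining genes of dendritic and B cells were too rare to tell whether these cells were present, so the hexagons are called by the class II rule and by no cell type.

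Macrophage genes were present in class II hexagons at moderately higher levels than elsewhere in the same aortas. The 24 genes of the list summed to 6675, 9000 and 10039 CPM in class II hexagons of AAA1 to AAA3, against 5407, 6661 and 6632 CPM in the other hexagons of these mice, with the UMIs of the 4 genes left out of the total. The ratio was thus 1.23, 1.35 and 1.51. C1qa, a chain of the complement component C1q that resident macrophages secrete, had 727, 1207 and 1295 CPM (28, 11 and 8 UMIs) in class II hexagons, against 421, 387 and 446 CPM in the others. Lyz2 had 1091, 1537 and 1619 CPM, against 927, 1073 and 891 CPM. Both were higher in each of the 3 mice. C1qb, another chain of C1q, had 519, 659 and 486 CPM, against 430, 457 and 421 CPM. The chain C1qc was not higher throughout, as it had 909, 549 and 324 CPM in class II hexagons, against 556, 598 and 659 CPM in the others. Gpnmb, a glycoprotein of lipid-laden macrophages, had 597, 1427 and 1619 CPM, against 572, 1073 and 1114 CPM. Cd68, a lysosomal membrane protein of macrophages, had 6, 0 and 0 UMIs in class II hexagons of AAA1 to AAA3. This was 156, 0 and 0 CPM, against 149, 158 and 184 CPM in the others. The class II hexagons of AAA2 and AAA3 held only 9284 and 6329 UMIs in all. Cd163 had 0 UMIs in class II hexagons of all 3 mice and only 13 over all kept hexagons.

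The collagen fibroblast list showed the same direction at a much higher level. The 20 genes of this list summed to 45712, 28537 and 42584 CPM in class II hexagons of AAA1 to AAA3, against 33544, 27288 and 30326 CPM in the other hexagons, with ratios of 1.36, 1.05 and 1.40. The list also holds genes that are not collagens, such as Cst3, Lum and Sparc. Collagen genes and collagen UMIs below are those of the whole list. Col3a1, the chain of type III collagen, had 7974, 5927 and 9877 CPM in class II hexagons, against 6353, 5224 and 6564 CPM in the others. Cst3, a secreted inhibitor of cathepsins that macrophages and dendritic cells also express, had 8597, 5598 and 9877 CPM, against 5498, 4650 and 4873 CPM. Both genes were higher in 3 of 3 mice, while Lum (lumican) was lower in AAA2, with 329 CPM in class II hexagons against 668 CPM in the others. Sparc, a glycoprotein that binds collagen, was lower in 3 of 3 mice, with 2156, 1427 and 1133 CPM in class II hexagons, against 2493, 1841 and 2480 CPM in the others. In AAA2 Cst3 made up most of the difference of the list, and it was also a large part in AAA1 and AAA3. The direction of the list is therefore not that of fibroblast genes alone.

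Smooth muscle and adipocyte genes lay on the other side. The 14 contractile smooth muscle genes summed to 10077, 12622 and 10039 CPM in class II hexagons, against 14746, 13362 and 19034 CPM in the others, a ratio of 0.683, 0.945 and 0.527. Acta2 had 2571, 3183 and 3076 CPM in class II hexagons, against 4259, 3670 and 5852 CPM in the others. The 12 adipocyte genes summed to 11376, 9549 and 8744 CPM, against 13745, 13280 and 9766 CPM, and Cfd (adipsin) had 4493, 3183 and 2105 CPM, against 5436, 3817 and 3260 CPM. In AAA1 most of the adipocyte difference lay in 1 group of touching class II hexagons, described below. Each of these sums and genes was lower in class II hexagons in 3 of 3 mice. So was Alb, a gene of the liver named after its values were seen, with 6207, 8122 and 5343 CPM in class II hexagons, against 8802, 9158 and 8381 CPM in the others. An Alb UMI was expected in 26.4% of class II hexagons and 33.5% of the others after thinning to 45 UMIs, and the part of this RNA in the class II counts was not tested.

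**Figure D3:**
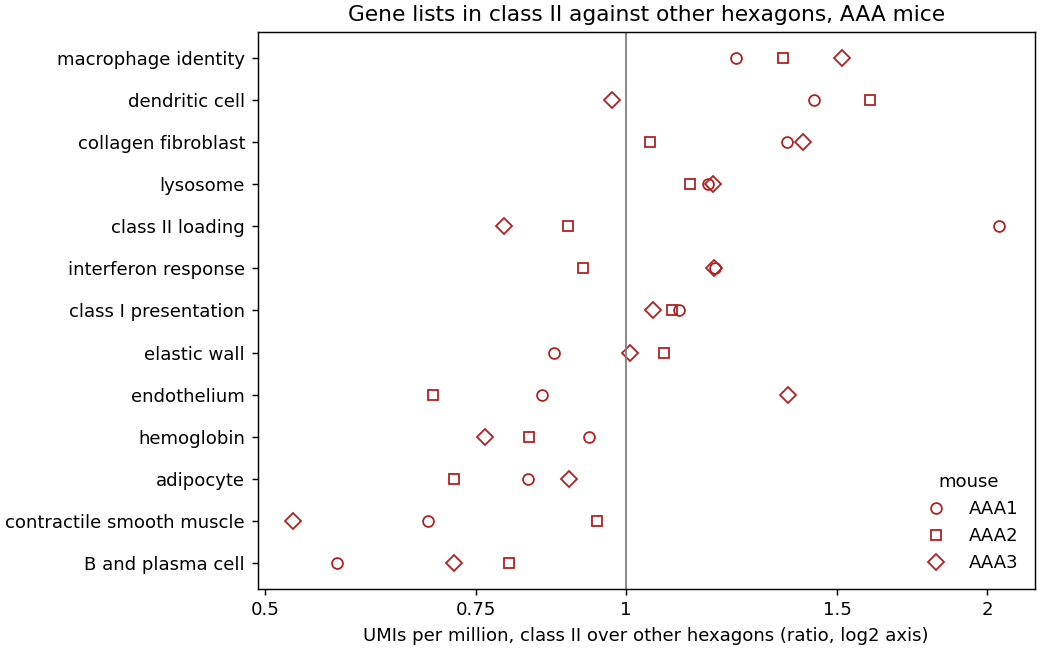
Ratio of class II over other hexagons (log axis, 1 marked) of the summed CPM of each gene list, with a symbol for each AAA mouse. Macrophage, collagen, lysosome and class I lists lie above 1 and smooth muscle, adipocyte, B and plasma cell and hemoglobin lists lie below 1 in all 3 mice.

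Class II hexagons were deeper than the other hexagons of the same mice. Their median was 136.5, 107 and 88.5 UMIs in AAA1 to AAA3, against 78, 78 and 70 in the others. The share of hexagons with a UMI of a list was therefore compared after each was thinned to 45 UMIs outside the 4 genes. A macrophage UMI was then expected in 23.1%, 29.2% and 33.4% of class II hexagons of AAA1 to AAA3, against 20.1%, 22.4% and 23.5% of the others. For the collagen list the mean was 78.5% ± 6.42 in class II hexagons and 68.7% ± 1.91 in the others (SD, n = 3 AAA mice), for smooth muscle 36.3% ± 3.02 and 47.5% ± 4.54, and for adipocytes 30.2% ± 0.540 and 34.7% ± 3.30. The direction held in each of the 3 mice for all 4 lists. For the dendritic cell list, by contrast, the shares were 2.30% ± 0.837 and 2.19% ± 0.108.

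No single gene passed the test of class II against other hexagons in the AAA mice. UMIs were summed per mouse over both classes, the 4 genes were left out, and each mouse served as its own block. Of 2181 genes, 0 were higher (0%) and 0 were lower (0%) at an adjusted p under 0.05 by edgeR's quasi-likelihood test, and DESeq2 also gave 0. At an unadjusted p under 0.05, edgeR gave 29 higher (1.33%) and 76 lower (3.48%), and DESeq2 gave 16 and 18. On the log2 scale, the middle gene of the fit was at -0.17 after TMM scaling and -0.02 by library size alone, where the unadjusted counts were 65 higher and 60 lower, so that values are best read against -0.17. The gene with the least p was Cpe (carboxypeptidase E), at -1.08 (SE 0.30, adjusted p = 0.445, edgeR).

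Lists are given by counts of genes above and below 0 in this fit, beside 806 (37%) above and 1375 (63%) below for all genes tested. Of the 20 macrophage genes tested, 14 were above 0 and the median was 0.10. C1qa was at 0.96 on the log2 scale (SE 0.34, adjusted p = 0.730, edgeR), while Lyz2 was at 0.22 and Gpnmb at 0.03. Of 20 collagen fibroblast genes, 13 were above 0, with a median of 0.05, but without AAA1 only 8 were above 0, with a median of -0.36. Over all genes tested without AAA1, 665 of 1902 were above 0, with a median of -0.32, so that the values without this mouse are to be read against it. All 12 smooth muscle genes tested were below 0, with a median of -0.87, and 6 of them had an unadjusted p under 0.05, and without AAA1 10 of them were below 0, with a median of -0.71. Acta2 was at -0.89 (SE 0.27, adjusted p = 0.517, edgeR), Tagln at -0.88 and Myl9 at -0.93. All 11 adipocyte genes tested were below 0, with a median of -0.51, and 10 of them were by library size alone and 9 without AAA1. Of the 11 class II loading genes, 4 could be tested and 3 were above 0, with a median of 0.28 that became -0.69 without AAA1. Ctss had 31, 5 and 0 UMIs in class II hexagons of AAA1 to AAA3 (805, 549 and 0 CPM), against 312, 399 and 402 CPM in the others. H2-DMa, a chain of the chaperone that exchanges peptides on class II, had 7, 0 and 0 UMIs, and Ciita, the master activator of the family, had 1, 0 and 0.

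Class I presentation genes serve the display of peptides made inside the cell, and lysosome genes serve the breakdown of engulfed proteins. The 20 class I genes gave CPM ratios of 1.11, 1.09 and 1.05, and 4 of the 9 tested genes were above 0, with a median of -0.14, while by library size alone 6 were above 0, with a median of 0.07. The lysosome list gave CPM ratios of 1.17, 1.13 and 1.18, and 6 of 15 tested genes were above 0, with a median of -0.20, against 7 and -0.02 by library size alone. Ctsb, a cathepsin, had 1714, 1317 and 2105 CPM in class II hexagons, against 1072, 1425 and 1250 CPM in the others.

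The overlap with macrophage, collagen and adipocyte transcripts was then counted hexagon by hexagon. Over all AAA mice, 51.8% of the 384 class II hexagons and 34.7% of the 9804 others held a macrophage UMI. A collagen UMI was present in 94.0% and 84.2%, and an adipocyte UMI in 56.8% and 50.8%. UMIs of all 3 lists met in 29.4% of class II hexagons and 15.6% of the others, and none of the 3 was present in 1.56% and 5.34%. Macrophage UMIs without collagen or adipocyte UMIs occurred in 0.781% of class II hexagons and 2.68% of the others. Thus nearly every class II hexagon of AAA aortas also held RNA of the collagen fibroblast list, as did most of the others. Macrophage RNA alone was rare in both classes.

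The differences were smaller among hexagons of like depth. Among hexagons with 75 to 150 UMIs outside the 4 genes, a macrophage UMI was present in 46.4% of 181 class II hexagons and 39.3% of 4380 others, a collagen UMI in 93.4% and 89.5% and an adipocyte UMI in 55.2% and 55.5%. Macrophage UMIs without collagen or adipocyte UMIs occurred in 1.66% of these class II hexagons and 1.94% of the others. By mouse, the share with any macrophage UMI in this range was 41.1%, 57.1% and 52.9% in class II hexagons of AAA1 to AAA3. In the others it was 38.6%, 39.3% and 41.1%. The share was higher in class II hexagons of each mouse, by the least in AAA1. Seen from the lists, class II hexagons made up 11.8% of the 441 AAA hexagons with 3 or more macrophage UMIs, 6.27% of the 4288 with 3 or more collagen UMIs, 5.08% of the 1004 rich in adipocyte UMIs and 4.67% of the 1779 rich in smooth muscle UMIs. Over all kept hexagons the class II share was 4.47%, 3.77% and 2.31% in AAA1 to AAA3. The sets above overlap and differ in depth. After thinning, the expected share with 1 or more UMI of the 4 genes was 13.4% (macrophage), 12.5% (collagen), 9.70% (adipocyte) and 9.62% (smooth muscle). Over all kept hexagons it was 11.04%, 11.09% and 10.99% in AAA1 to AAA3. The order of the lists differed between mice. In AAA1 the macrophage, collagen, adipocyte and smooth muscle shares were 15.5%, 12.7%, 9.92% and 9.80%, in AAA2 they were 13.5%, 12.4%, 10.2% and 10.8%, and in AAA3 they were 9.05%, 12.01%, 8.01% and 8.67%, so that the macrophage share lay below the collagen share in AAA3.

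Collagen, macrophage and smooth muscle levels were then followed over the number of class II UMIs, from 0 over 1 and 2 to 3 or more. In AAA1 collagen and macrophage levels went up and smooth muscle levels went down at each step, with 32448, 38623, 43318 and 49986 CPM of collagen genes, 5256, 6108, 6240 and 7451 CPM of macrophage genes and 15222, 12541, 10414 and 9476 CPM of smooth muscle genes. The other mice did not share this gradation for each list. In AAA2 collagen genes were nearly level, with 27073, 28268, 28072 and 29545 CPM, and so were smooth muscle genes, with 13594, 12306, 12352 and 13208 CPM. In AAA3 collagen genes had 30052, 31864, 45130 and 37718 CPM, and smooth muscle genes had 19424, 16845, 10111 and 9901 CPM. Macrophage genes had 6597, 6953, 7218 and 12861 CPM in AAA2. In AAA3 they had 6735, 6053, 8631 and 12730 CPM, with a lower value at 1 than at 0 UMIs. The step of 3 or more UMIs held only 69, 20 and 20 hexagons in AAA1 to AAA3, with 103, 37 and 27 macrophage UMIs. Over the AAA mice, median depth went up along the steps as well, with 74, 86, 106 and 147 UMIs, and its part in these steps was not tested.

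In AAA1 and AAA3, class II hexagons touched another class II hexagon more often than the other hexagons did. A touching hexagon (centre within 25 µm) was also a class II hexagon for 49.2% of class II hexagons in AAA1, 16.2% in AAA2 and 24.2% in AAA3, against 14.3%, 14.6% and 7.03% of the other hexagons. In AAA2 the shares differed by little. Hexagons around class II hexagons were also deeper. Within 25 µm their median was 123, 105 and 87 UMIs, against 86, 88 and 77 around other hexagons. Class II hexagons also had more kept neighbours, on average 4.69, 4.38 and 3.66, against 3.95, 3.91 and 3.39. The shares were not thinned, and the part of depth in them was not tested. The 248 class II hexagons of AAA1 formed 161 groups of touching hexagons, of which 126 were single. The largest group, with 23 hexagons, lay in 1 section of AAA1, spanned 187 µm by 108 µm, and had a median of 304 UMIs per hexagon and 87 UMIs of the 4 genes. It had 54134 CPM of collagen genes, 6848 CPM of macrophage genes and 3488 CPM of adipocyte genes, against 43593, 6632 and 13361 CPM in the other class II hexagons of AAA1. The dendritic cell list came to 1421 CPM in it, against 650 CPM in those others. In AAA1 hexagons that were not class II, collagen, macrophage and adipocyte genes had 33544, 5407 and 13745 CPM. Outside the group, the adipocyte level of class II hexagons in AAA1 was thus close to that of the hexagons that were not class II. This group was singled out after its values were seen. Without it the difference in share between AAA and control mice was 2.48 percentage points.

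**Figure D4:**
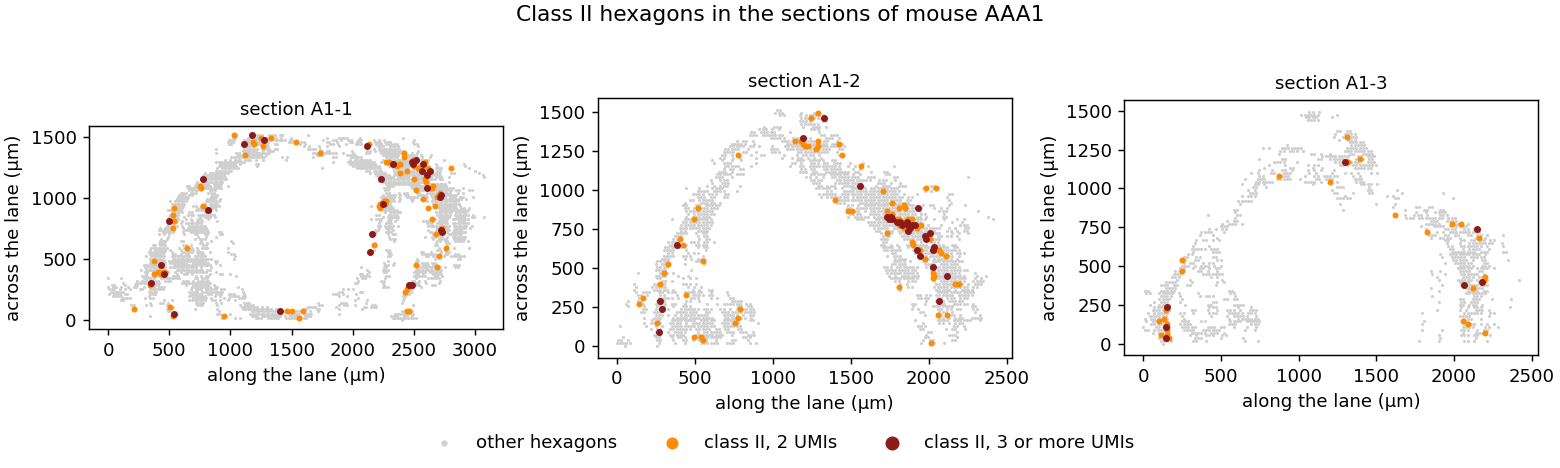
Positions of kept hexagons in the 3 sections of AAA1 (both axes in µm), with class II hexagons of 2 UMIs and of 3 or more UMIs of the 4 genes in colour over the other hexagons in grey. The largest group of touching class II hexagons, 23 in all, lies in section A1-2.

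The surroundings of class II hexagons were described by distance. Within 25 µm of a class II hexagon, collagen genes had 46901, 30640 and 37178 CPM in AAA1 to AAA3, against 35206, 28291 and 30829 CPM within 25 µm of other hexagons. Smooth muscle genes had 10531, 11886 and 14047 CPM, against 14186, 12664 and 19257 CPM. Macrophage genes did not share a direction, with 6450, 6174 and 6181 CPM, against 5535, 6411 and 6610 CPM. At 200 to 300 µm the collagen values were 36152, 27836 and 30059 CPM around class II hexagons, against 35459, 27598 and 29763 CPM around the others, so that most of the difference lay close by. Hexagons beside a class II hexagon that were not class II themselves had 44816, 30729 and 37248 CPM of collagen genes, against 30876, 26476 and 29709 CPM in those farther away. These hexagons beside a class II hexagon were deeper as well, with medians of 108, 102 and 80.5 UMIs, against 75, 75 and 70. The part of depth in the values of the surroundings was not tested. Neighbouring hexagons are not independent, and no test was made on them.

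**Figure D5:**
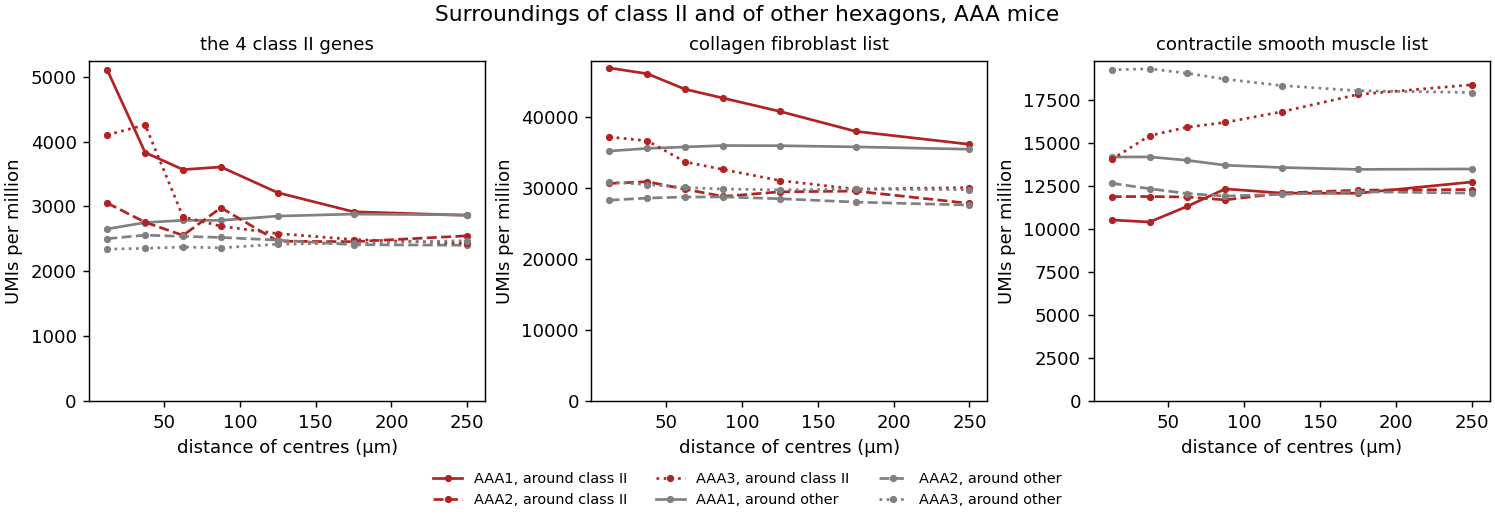
Summed CPM of the 4 class II genes, of collagen genes and of smooth muscle genes (y axes) in hexagons at a given distance (x axis, µm) from class II hexagons and from other hexagons, with a line for each AAA mouse. Collagen lines around class II hexagons start above those around other hexagons, at 46901, 30640 and 37178 CPM, and come close to them at 200 to 300 µm.

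Class II hexagons of AAA and control mice could be compared only in outline, because C1, C2 and C3 had 3, 7 and 2 of them, with 493, 652 and 144 UMIs. Of 21 genes with enough UMIs, Acta2 was the 1 gene lower in AAA (4.76%) and 0 were higher at an adjusted p under 0.05 by edgeR, with 1 higher at an unadjusted p under 0.05 and 0 higher by DESeq2. Acta2 had 2571, 3183 and 3076 CPM in class II hexagons of the AAA mice, against 14374, 17241 and 42857 CPM (7, 11 and 6 UMIs) in those of the control mice. The groups did not overlap, and on the log2 scale AAA over control was -2.37 (SE 0.48, adjusted p = 7.0e-05, edgeR). Over all kept hexagons Acta2 was lower in AAA too, as given above. The call was lost without C1 (adjusted p = 0.0835, edgeR) or C2 (adjusted p = 0.211, edgeR) and on a shifted grid of hexagons (-0.82, adjusted p = 0.204, edgeR), and without AAA3 only 1 gene could be tested. A macrophage UMI was present in 8.33% of the 12 control class II hexagons and 21.0% of the other control hexagons, and a collagen UMI in 91.7% and 75.2%.

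The difference between class II and other hexagons was itself compared between AAA and control mice over 536 genes. Cst3 and Rps29, a ribosomal protein gene, passed as higher at an adjusted p under 0.05 by edgeR (0.373%). At an unadjusted p under 0.05, 23.1% of the genes were higher, and 0 genes were lower at either threshold (0%). By library size alone, 2 were higher and 13 lower at an unadjusted p under 0.05. Cst3 had 2, 2 and 0 UMIs in class II hexagons of C1 to C3 and Rps29 had 0, 0 and 2, so that these values rest on a handful of transcripts. At the adjusted threshold 0 genes passed by library size alone, and without C1 or without AAA1 0 passed as well.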

How the data were processed

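Sequenced Seq-Scope libraries of aortic sections were aligned by the authors with STARsolo 2.7.5c to mm10 and deposited as 1 matrix of UMI counts per gene and spatial barcode (32285 genes, 9837644 barcodes). The tools come from the submitters' processing notes. The columns of the matrix have no names, and the first count column was read as exonic UMI counts and the second as counts over whole genes, from the usual order of this tool. Exonic counts on lane 2 were summed in hexagons of 12 µm sides, at 26.6 position units per µm. Genes whose names start with mt or Gm were removed (8551), and hexagons with 50 or more genes inside the 20 sections were kept, against a minimum of 75 in the study. The study reported many more hexagons at its higher minimum, so shares and depths here do not refer to its set of hexagons. Overlapping genes and close H2 paralogs may share or lose reads.

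UMIs were summed per mouse and class of hexagon and tested in R 4.3.3 with the quasi-likelihood test of edgeR 4.0.16, after filterByExpr and TMM scaling and with Benjamini-Hochberg adjustment; DESeq2 1.42.0 was an alternative. Shares were compared over mice by exact permutation. Thinned shares are expectations over draws without replacement. The tests were run on simulated data. In class II against other hexagons, changes of 1 on the log2 scale were mostly missed, some of 2 were missed, and some false calls were made. The comparison of differences between conditions made false calls as well and overstated fold changes. The class II rule and the gene lists were chosen with earlier results of these data known. Named genes were the 4 class II genes, up to 4 genes of most UMIs from each list, and any gene past an adjusted p of 0.05 in the tests of class II hexagons. Other marker genes, Alb and Cpe were named after their values were seen. Doublets have no meaning for hexagons and were not called. No fold change or p-value of the study was used.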

Additional observations from a re-analysis of the deposited data

Results flagged for a closer look

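The difference between class II and other hexagons was larger in AAA than in control mice for Cst3, by 2.88 on the log2 scale (SE 0.68, adjusted p = 0.0150, edgeR's quasi-likelihood test of the difference), and for Rps29, by 3.21 (SE 0.84, adjusted p = 0.0378, edgeR). TMM factors in this fit ran from 0.676 to 6.08, and scaling by library size alone gave 0 genes. Cst3 was at 8597, 5598 and 9877 CPM in class II hexagons of AAA1 to AAA3.

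Tissue on the same lane that lies left of the first section, outside the 20 sections, also held hexagons that met the class II rule. These were 71 of 2603 hexagons, or 2.73% (95% Clopper-Pearson interval from 2.14% to 3.43%, counting error only), at a median of 114 UMIs per hexagon. After thinning to 50 UMIs the share was 0.130%, against 0.318% ± 0.323 in control mice (SD, n = 3). No label assigns this tissue to a group.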

How the results depend on the processing

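The difference in the share of class II hexagons was above 0 in every setting run (2.61 percentage points as reported). It was 4.77 at 75 or more genes per hexagon, 1.30 with counts over whole genes, 1.00 at 3 or more UMIs of the 4 genes, 7.75 at 1 or more and 0.853 after thinning, and 2.13 to 3.21 when a mouse was left out, where 0.2 is the smallest exact p. Genes past the test in class II against other hexagons numbered 1 of 2118 on a shifted grid (Myl9, -1.15, adjusted p = 0.0129, edgeR). Without the low-count filter there were 2 of 19066, among them Acta2 (-1.57, adjusted p = 0.0278, edgeR), and 0 passed in every other setting. Without that filter Lyz2 was at -0.43 and Cst3 at -0.33, and at 3 or more UMIs Cst3 was at -0.036. Between conditions, genes in class II hexagons numbered 3 of 50 tested at 75 or more genes and 4 of 25 on the shifted grid. Without the filter 0 of 10002 passed, and Acta2 was at 0.43. With a mouse left out 0 to 2 passed, of 1 to 74 tested. At 75 or more genes C3 had 0 class II hexagons, so only C1 and C2, with 3 each, served as controls there. This also holds for the difference of differences. No test at 3 or more UMIs was possible, since no control hexagon reached it. Over all hexagons, 93 of 2475 genes became 61 of 1184 at 75 or more genes, 233 of 11187 over whole genes and 171 of 19387 without the filter. With a mouse left out 17 to 106 passed, of 1163 to 4644 tested, with 17 of 4644 without C1. These counts are to be read against the number tested. H2-Aa lost its call at 75 or more genes (adjusted p = 0.274, edgeR), and Cd74 gained one there (0.0240) and on the shifted grid (0.0196). For the difference of differences, 2 of 536 genes became 11 of 534 at 75 or more genes, 90 of 4656 over whole genes and 29 of 525 on the shifted grid. By library size and without the filter 0 passed, and with a mouse left out 0 to 12 passed, of 416 to 840 tested. The causes were not tested. Of 488 values of named genes under an alternative, 441 kept direction and side of the threshold, 32 lost the call, 11 gained it and 4 reversed.

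Aortas were embedded in pairs. Deviations of paired mice correlated at 0.045, 0.023 and 0.073, above the -0.056 to 0.018 of the other combinations. All were low, and the main fits did not use pairing. With the pair as a replicate block, 93 of 2475 genes passed over all hexagons and 1 of 21 in class II hexagons. Without the mouse as replicate block, 0 of 2181 passed in class II against other hexagons. Only 12 control hexagons with 1289 UMIs carry every comparison of class II hexagons between conditions.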
